A study of Mus musculus with 6 samples.

Results

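The genes described here encode the later steps of glycolysis and the export of lactate: Aldoa, Tpi1, Pgk1, Pgam1, Eno1, Pkm, Ldha, Ldhb, Slc16a1 and Slc16a3. They were chosen by name as 10 of the 28773 genes listed for each sample. Their transcripts were measured by RNA-seq in splenic CD8+ T cells of tumor-bearing mice, collected on day 35, with 2 groups of 3 samples. MWA+PBS mice (replicates 1 to 3) had a tumor treated by microwave ablation, which destroys tissue by heat, and received phosphate-buffered saline as vehicle. MWA+2DG mice (replicates 4 to 6) had the same ablation and received 2-deoxy-D-glucose (2DG), a glucose analogue that is phosphorylated by hexokinase and then stalls glycolysis. Both groups therefore carried the ablation, and no sample without ablation and no sample with 2DG alone was analysed here. The labels gave no strain, sex or age. The study's methods describe female wild-type mice, BALB/c for its 4T1 mammary tumor model, with 2DG given after the ablation and stopped before the spleens were taken, and a CD8+ T cell isolation kit. Whether each sample came from 1 mouse or from pooled mice was not stated, so the p-values measure only the spread between these samples, which may be technical.

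In glycolysis, 1 glucose is split by aldolase into a pair of triose phosphates, and the steps after the split return ATP and NADH and end in pyruvate. Lactate dehydrogenase then turns pyruvate into lactate and restores NAD+, and the monocarboxylate transporters carry lactate across the plasma membrane together with a proton. Activated CD8+ T cells run this route at a high rate and many of its genes are targets of HIF-1 and MYC, whereas resting and memory CD8+ T cells rely more on mitochondrial oxidation.

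Because many of these genes are textbook targets of HIF-1, which binds a core of the letters ACGTG, with GCGTG as its other form, and of MYC, which binds the so-called E-box with the letters CACGTG, the bases upstream of their starts are shown first for the 4 genes that passed the test and for Ldha, whose window held the most matches. RefSeq (build GRCm38.p6) gave 16 start-site windows for the 10 genes, and each window searched spans the 250 bases before the start. Capitals mark the HIF-1 core in both forms and the E-box, on either strand. A core on the other strand reads CACGT when its first form is matched and CACGC when the other form is matched, and each E-box also holds the first form on both strands. The windows of Tpi1 (chr6:124814159-124814408, minus strand), Pgk1 (chrX:106186850-106187099, plus strand), Pgam1 (chr19:41911621-41911870, plus strand), Ldhb (chr6:142507958-142508207, minus strand) and the first of the windows of Ldha (chr7:46845554-46845803, plus strand) read, 5′ to 3′ on the strand of the gene:
Tpi1: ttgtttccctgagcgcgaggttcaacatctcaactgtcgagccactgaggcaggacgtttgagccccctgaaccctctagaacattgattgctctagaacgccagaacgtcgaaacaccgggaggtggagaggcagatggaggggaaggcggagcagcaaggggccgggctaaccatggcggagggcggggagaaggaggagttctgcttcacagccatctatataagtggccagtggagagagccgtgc
Pgk1: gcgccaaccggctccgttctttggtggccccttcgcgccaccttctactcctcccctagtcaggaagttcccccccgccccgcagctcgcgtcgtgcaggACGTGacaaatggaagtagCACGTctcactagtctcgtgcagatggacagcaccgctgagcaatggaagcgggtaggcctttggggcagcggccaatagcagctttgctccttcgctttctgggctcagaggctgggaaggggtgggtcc
Pgam1: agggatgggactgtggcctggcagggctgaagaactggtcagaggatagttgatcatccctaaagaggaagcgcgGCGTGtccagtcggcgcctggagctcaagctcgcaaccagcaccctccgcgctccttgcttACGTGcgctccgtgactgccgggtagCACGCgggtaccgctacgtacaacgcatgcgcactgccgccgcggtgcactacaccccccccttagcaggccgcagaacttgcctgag
Ldhb: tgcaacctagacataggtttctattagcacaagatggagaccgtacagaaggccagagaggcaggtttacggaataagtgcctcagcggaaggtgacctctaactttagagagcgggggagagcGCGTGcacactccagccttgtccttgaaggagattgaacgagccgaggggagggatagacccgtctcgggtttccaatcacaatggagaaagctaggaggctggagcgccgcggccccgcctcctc
Ldha: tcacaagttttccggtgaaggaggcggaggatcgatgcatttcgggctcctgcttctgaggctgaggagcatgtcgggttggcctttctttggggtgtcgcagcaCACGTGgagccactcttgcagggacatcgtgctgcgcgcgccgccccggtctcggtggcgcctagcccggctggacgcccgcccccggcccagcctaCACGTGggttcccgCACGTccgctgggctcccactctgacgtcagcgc

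The Tpi1 window held none of the motifs. Pgk1 held 2 ACGTG matches, with first bases at positions −150 and −131 from the start. Pgam1 held 1 ACGTG match at −114 and 2 GCGTG matches at −175 and −88. Ldhb held 1 GCGTG match at −126, and Ldha held CACGTG at −145 and −48 with a further ACGTG at −34. For the Pgam1 window, the Ldha window shown and the first Eno1 window, the bases after the RefSeq start matched no GENCODE transcript of the gene. These starts are therefore less certain. The other Ldha window (chr7:46846832-46847081), where they did match, held 1 GCGTG match at −59 and no E-box. Over all members, 9 of 10 had a HIF-1 core of either form in at least 1 window, a count for which no share of all genes was computed. By window, 13 of the 16 (81.25%) held one, against 38.6% of the 32851 windows of all genes. Several windows of Aldoa and of Eno1 overlap and share their matches. Taken singly, ACGTG was found in 16.6% of all windows, the other form in 28.2% and the E-box in 6.02%. A match is a run of letters and not a binding site, and none was measured here.

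Levels are FPKM as deposited, that is, fragment numbers divided by the length of the transcript and by the size of the library. Differences are MWA+2DG minus MWA+PBS on the log2(FPKM + 1) scale, on which the change of a gene of low level comes out too small. They come from limma, and a difference was called at a Benjamini-Hochberg adjusted p under 0.05 over the 12444 genes whose mean FPKM was at least 1. The deposited values hold no read counts, so the depth per sample is unknown. Total FPKM ran from 291803 to 313257 per sample, and mitochondrially encoded transcripts took 21.4% to 22.8% of it in the MWA+PBS samples and 19.4% to 20.7% in the MWA+2DG samples.

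Tpi1, Pgk1, Pgam1 and Ldhb were called lower in MWA+2DG and no member was called higher. Of the 10 members, 9 were tested, and the remaining gene, Slc16a3, had a mean FPKM under 1. The 4 called lower stand beside 17.1% of all genes tested, and the 0 called higher beside 22.3%. The number called lower was 6 after median ratio scaling (19.8% of all genes), 7 after quantile normalization (17.6%) and 9 after scaling to the T lineage genes, where 64.1% of all genes were lower. It was 0 when a log2 fold change beyond 1 was also required (3.84%). The same 4 genes were counted with the study's rule of P under 0.05 and a log2 fold change beyond 0.25, by which 16.6% of all genes were lower. In 6 of the 9 tested members, each MWA+2DG sample lay below each MWA+PBS sample, as in 21.9% of all genes tested. In 1 of the 9, Slc16a1, each MWA+2DG sample lay above, as in 30.2%. The median log2 fold change was −0.14 over the 9 members and 0.05 over all genes tested. Macrophage, erythroid and proliferation genes were also lower in MWA+2DG and T lineage genes and most neutrophil genes higher, with the values given after the pathway. In such bulk samples, fewer cells of a type and less RNA per cell cannot be told apart.

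**Figure D1:**
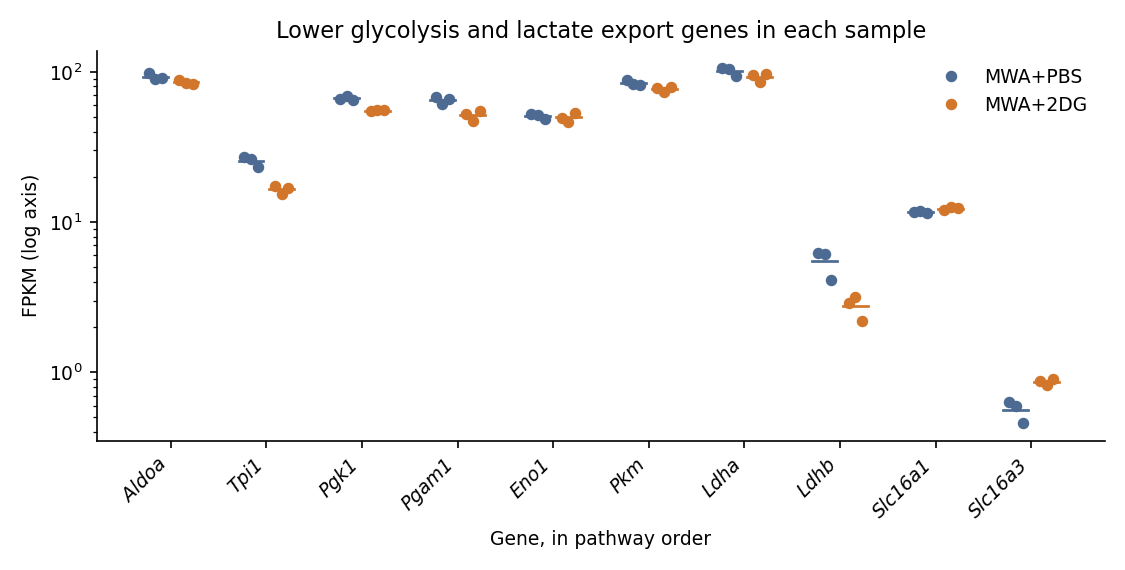
FPKM of the 10 genes (log axis) in each of the 3 MWA+PBS and 3 MWA+2DG samples, with a bar at each group's mean. Tpi1 and Ldhb lie apart between the groups, the samples of Eno1 and Ldha overlap, and Slc16a3 lies under 1 FPKM in all 6 samples.

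The splitting of fructose 1,6-bisphosphate and the joining of its products into 1 stream are carried out by aldolase A and triose phosphate isomerase. Aldoa was at 98.01, 89.49 and 91.12 FPKM in the MWA+PBS samples and at 88.01, 84.11 and 83.33 in the MWA+2DG samples. The MWA+2DG samples were all lower, but the difference of −0.12 did not pass (95% interval −0.25 to 0.01, limma adjusted p = 0.118). Tpi1 was at 27.01, 26.18 and 23.29 FPKM in the MWA+PBS samples and at 17.33, 15.26 and 16.88 in the MWA+2DG samples. These groups were well apart. The mean went from 25.5 ± 1.95 to 16.5 ± 1.09 FPKM (SD, n = 3 each), 0.647 times the MWA+PBS level, and the log2 difference was −0.60 ± 0.08 (SE, limma adjusted p = 0.000733). The FPKM ratio of Aldoa to Tpi1 was 3.63, 3.42 and 3.91 in the MWA+PBS samples and 5.08, 5.51 and 4.94 in the MWA+2DG samples.

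Phosphoglycerate kinase 1 makes the first ATP of the payoff phase, and phosphoglycerate mutase 1 passes its product on to enolase. Pgk1 was at 65.47, 69.51 and 65.04 FPKM in the MWA+PBS samples and at 54.69, 55.25 and 55.57 in the MWA+2DG samples. The 3 MWA+2DG samples lay close to each other and well below every MWA+PBS sample. The mean fell from 66.7 ± 2.47 to 55.2 ± 0.445 FPKM (SD, n = 3 each), a log2 difference of −0.27 ± 0.05 (SE, limma adjusted p = 0.00441). Pgam1 was at 68.20, 61.22 and 65.60 FPKM in the MWA+PBS samples and at 52.43, 47.22 and 55.04 in the MWA+2DG samples. Its groups did not overlap either. The mean fell from 65.0 ± 3.53 to 51.6 ± 3.98 FPKM (SD, n = 3 each), a log2 difference of −0.33 ± 0.07 (SE, limma adjusted p = 0.00935).

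Enolase 1 dehydrates 2-phosphoglycerate to phosphoenolpyruvate, from which pyruvate kinase, encoded by Pkm, makes the second ATP of the phase and pyruvate. Eno1 was at 51.99, 51.18 and 48.70 FPKM in the MWA+PBS samples and at 49.61, 46.02 and 53.55 in the MWA+2DG samples. Both the lowest and the highest sample were in MWA+2DG, and the difference was −0.03 (95% interval −0.18 to 0.13, limma adjusted p = 0.773). Pkm was at 88.18, 82.79 and 82.10 FPKM in the MWA+PBS samples and at 77.42, 73.64 and 78.86 in the MWA+2DG samples. All MWA+2DG samples were lower, with a difference of −0.14 that did not pass (95% interval −0.26 to −0.01, limma adjusted p = 0.083). Gene-level FPKM does not tell the splice forms PKM1 and PKM2 apart. Aldoa and Pkm passed when the samples were weighted by quality or scaled by quantile normalization or median ratios, with limma adjusted p from 0.0171 to 0.0498. With Ldha, which passed under quantile normalization (limma adjusted p = 0.0366), these are the added calls under quantile normalization.

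Lactate dehydrogenase is a tetramer of A and B subunits. Ldha encodes the subunit tied to lactate formation, and Ldhb the subunit that favors the return of lactate to pyruvate. Ldha had the highest mean of the 10 genes in both groups, counting each under its own name, at 105.19, 104.50 and 94.33 FPKM in the MWA+PBS samples and at 95.40, 85.71 and 97.13 in the MWA+2DG samples. The groups overlapped, because MWA+PBS replicate 3 lay below 2 of the MWA+2DG samples, and the difference was −0.13 (95% interval −0.29 to 0.04, limma adjusted p = 0.192). Without MWA+2DG replicate 5, the lowest sample, it was −0.07 (limma adjusted p = 0.467). Ldhb was at 6.23, 6.15 and 4.13 FPKM in the MWA+PBS samples and at 2.89, 3.19 and 2.18 in the MWA+2DG samples. Replicates 3 and 6 were the low samples of their groups, and the groups did not overlap. The mean fell from 5.50 ± 1.19 to 2.75 ± 0.519 FPKM (SD, n = 3 each), 0.500 times the MWA+PBS level, with a log2 difference of −0.79 ± 0.16 (SE, limma adjusted p = 0.0069). The FPKM ratio of Ldha to Ldhb was 16.9, 17.0 and 22.8 in the MWA+PBS samples and 33.0, 26.9 and 44.6 in the MWA+2DG samples.

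The monocarboxylate transporters MCT1 (Slc16a1) and MCT4 (Slc16a3) stand at the end of the route, and MCT4 is the form usually linked to lactate release from highly glycolytic cells. Slc16a1 was at 11.66, 11.92 and 11.49 FPKM in the MWA+PBS samples and at 11.97, 12.50 and 12.34 in the MWA+2DG samples. All MWA+2DG samples were higher by a narrow margin, and the difference of 0.06 did not pass (95% interval −0.06 to 0.19, limma adjusted p = 0.357). Scaling to T lineage genes turned it to a called decrease (−0.37, limma adjusted p = 0.00123). Slc16a3 was at 0.63, 0.60 and 0.46 FPKM in the MWA+PBS samples and at 0.88, 0.82 and 0.90 in the MWA+2DG samples. Again no MWA+2DG sample reached down to an MWA+PBS sample, but the levels were low in both groups. Fitted without the filter on low values, over 28458 genes, Slc16a3 had a difference of 0.26 ± 0.08 (SE, 95% interval 0.05 to 0.46, limma adjusted p = 0.0903), which did not pass. The ratio of Slc16a3 to Slc16a1 was 0.054, 0.050 and 0.040 in the MWA+PBS samples and 0.074, 0.066 and 0.073 in the MWA+2DG samples.

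A ratio between genes within a sample does not depend on how the library was scaled. Of the 8 ratios formed, 7 separated the groups without overlap. The share of all gene pairs that separate was not computed. Among single genes tested, 21.9% were lower and 30.2% higher without overlap. Tpi1, Pgam1, Ldha, Pkm and Slc16a1 each stood in more than 1 pair, so the ratios are not separate results. On the log2 scale, MWA+2DG minus MWA+PBS, Ldha over Ldhb differed by 0.86, Slc16a3 over Slc16a1 by 0.56, Aldoa over Tpi1 by 0.50 and Eno1 over Pgam1 by 0.31. Tpi1 over Pgk1 differed by −0.36. Slc16a1 over Ldha and Pkm over Pgam1 each differed by 0.20, the former by 0.13 without MWA+2DG replicate 5. With 1 added to each FPKM, the difference for Slc16a3 over Slc16a1 was 0.19. Each of these 7 had an exact permutation p of 0.1, two-sided, which is the smallest that 3 against 3 allows, and 0.114 after Benjamini-Hochberg adjustment over the 8. Ldha over Pkm was 1.20 ± 0.0571 in the MWA+PBS samples and 1.21 ± 0.0393 in the MWA+2DG samples (SD, n = 3 each, exact permutation p = 0.9).

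**Figure D2:**
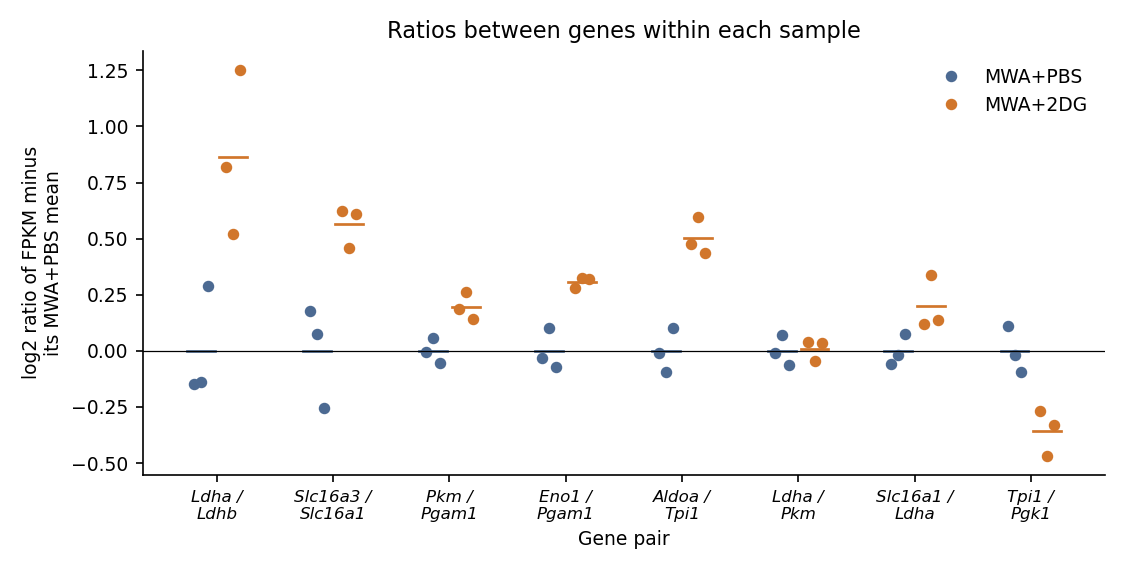
Log2 ratio of FPKM of 8 gene pairs in each sample, minus the mean of that ratio in MWA+PBS, with a bar at each group's mean. The 3 MWA+2DG samples lie above all MWA+PBS samples for 6 pairs and below them for Tpi1 over Pgk1, and the groups overlap only for Ldha over Pkm.

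Added up, the 10 genes amounted to 522.57, 503.54 and 486.26 FPKM in the MWA+PBS samples and to 450.63, 423.72 and 455.78 in the MWA+2DG samples. The sum was lower in each MWA+2DG sample, with means of 504.1 ± 18.2 and 443.4 ± 17.2 FPKM (SD, n = 3 each, exact permutation p = 0.1, the smallest possible). The difference of −60.7 FPKM became −220.4 after scaling to T lineage genes, in the same direction. The 10 genes together made up 0.211% ± 0.00412 of the FPKM of nuclear-encoded genes in the MWA+PBS samples and 0.187% ± 0.00665 in the MWA+2DG samples (SD, n = 3 each, exact permutation p = 0.1). Within the sum, Ldhb went from 1.09% ± 0.207 to 0.624% ± 0.138 and Tpi1 from 5.05% ± 0.228 to 3.72% ± 0.123, whereas Eno1 went from 10.04% ± 0.11 to 11.2% ± 0.476 (SD, n = 3 each).

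The order of the levels was the same in both groups. By mean FPKM it ran from Ldha through Aldoa, Pkm, Pgk1, Pgam1, Eno1, Tpi1, Slc16a1 and Ldhb to Slc16a3. The samples of Ldha and Aldoa overlapped in both groups, as did those of Pgk1 and Pgam1. Pgam1 and Eno1 were apart in MWA+PBS, where the lowest Pgam1 sample was at 61.22 FPKM and the highest Eno1 sample at 51.99, and overlapped in MWA+2DG. No other neighbors in the order overlapped.

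Several of these genes have near-identical copies elsewhere in the genome, so reads can be split between a gene and its copies. Copies were sought as genes in the table whose transcripts matched a member at 95% identity or more over at least 150 bases. Eno1 had 3: Eno1b (99.5% identity), the processed pseudogene Gm4735 (99.6%) and the processed pseudogene Gm5855 (96.3%). Eno1b was at 46.9 ± 2.36 FPKM in the MWA+PBS samples and 44.4 ± 2.41 in the MWA+2DG samples, and Gm4735 at 68.0 ± 1.22 and 63.1 ± 1.82 (SD, n = 3 each), so that Eno1 itself held only 29.8% to 32.3% of the sum. The summed enolase 1 level was 166.6 ± 3.12 FPKM in the MWA+PBS samples and 158.6 ± 8.28 in the MWA+2DG samples (SD, n = 3 each), above that of any other member, with a log2 difference of −0.07 (limma adjusted p = 0.354).

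The other members kept most of their FPKM under their own name. Pgam1 held 81.1% to 86.1% of its sum with the pseudogene Pgam1-ps2, Pgk1 held 90.3% to 92.6% of its sum with 3 copies, of which Pgk1-rs7 and Gm5537 had a mean of at least 1 FPKM, and Pkm held 97.4% to 98.0% of its sum with Gm6560. Tpi1, Ldha and Ldhb had copies with means under 1 FPKM, and Aldoa, Slc16a1 and Slc16a3 had none. With the copies added, a step chosen after seeing the data, the called genes were again Tpi1 (−0.60, limma adjusted p = 0.000848), Pgk1 (−0.25, 0.00704), Pgam1 (−0.32, 0.0144) and Ldhb (−0.79, 0.00653).

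The extreme case was Gapdh, which lies between Tpi1 and Pgk1 in the pathway and encodes the enzyme that makes NADH. Listed under its own identifier it was at 6.05, 5.59 and 4.87 FPKM in the MWA+PBS samples and at 3.81, 4.48 and 3.88 in the MWA+2DG samples, a log2 difference of −0.36 ± 0.09 (SE, limma adjusted p = 0.0175). That was only 0.724% to 0.918% of the sum with its 68 copies in the table, of which the pseudogene Gm13394 alone was at 297 ± 13.7 and 233 ± 9.03 FPKM (SD, n = 3 each). The sum was 674.24, 639.49 and 599.28 FPKM in the MWA+PBS samples and 526.58, 488.02 and 524.56 in the MWA+2DG samples. No MWA+2DG sum reached the lowest MWA+PBS sum, and the log2 difference of −0.31 ± 0.07 (SE, limma adjusted p = 0.00969) stood beside −0.60 for Tpi1 before it and −0.27 for Pgk1 after it in the pathway.

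**Figure D3:**
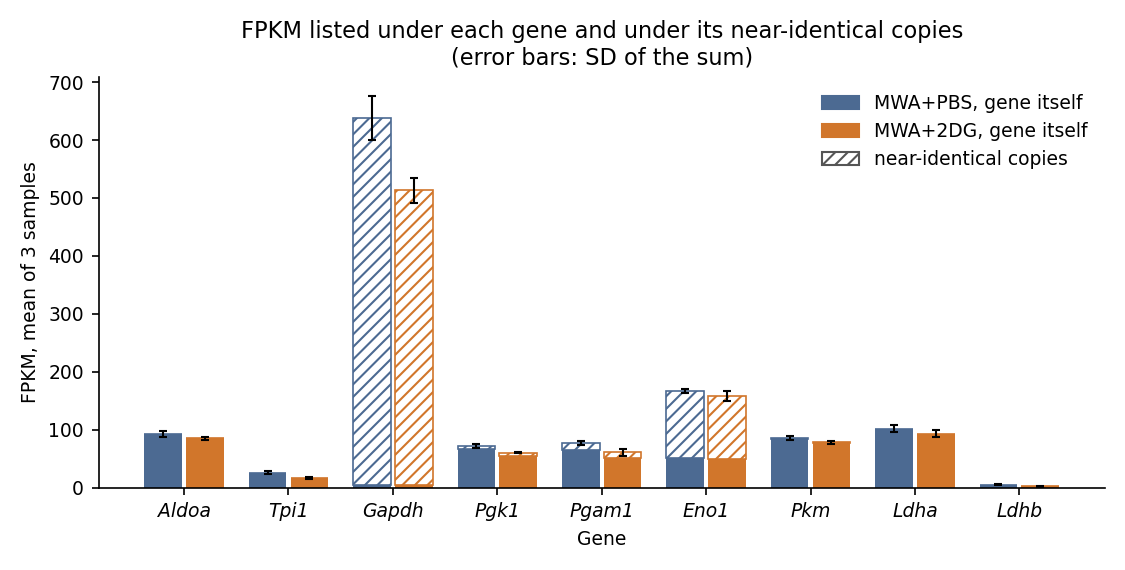
Mean FPKM listed under each gene (filled) and under its near-identical copies (hatched) in the 2 groups (blue MWA+PBS, orange MWA+2DG), with the SD of the sum over 3 samples. Nearly all of the Gapdh bar and the larger part of the Eno1 bar belong to copies, whereas the other genes hold most of their own signal.

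Related isoforms and the partners of the transporters gave a mixed picture. Of 19 genes in this companion list, 17 were in the table and 8 were tested, 2 of them higher and 2 lower (1 and 4 after median ratio scaling, 0 and 5 after scaling to T lineage genes), with a median log2 fold change of −0.18. Of all genes tested, 22.3% were higher and 17.1% lower. These shares were 18.7% and 19.8% after median ratio scaling and 4.48% and 64.1% after scaling to T lineage genes. The 2 lower were Gapdh and Emb, which encodes embigin, a chaperone of monocarboxylate transporters. Emb was at 39.22 to 42.42 FPKM in the MWA+PBS samples and at 27.58 to 31.35 in the MWA+2DG samples, a log2 difference of −0.46 (limma adjusted p = 0.00116). Bsg, which encodes basigin, the chief partner of MCT1 and MCT4, was at 44.11 to 46.68 and 41.05 to 43.87 FPKM, and its difference of −0.10 did not pass (95% interval −0.22 to 0.02, limma adjusted p = 0.171), although it passed as lower after median ratio scaling (−0.15, limma adjusted p = 0.046) and scaling to T lineage genes (−0.56, limma adjusted p = 0.00011).

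The 2 higher genes of this list were Eno3, the muscle enolase, at 7.58 to 8.72 FPKM in the MWA+PBS samples and 9.62 to 10.18 in the MWA+2DG samples (log2 difference 0.29, limma adjusted p = 0.013), and Bpgm, which makes 2,3-bisphosphoglycerate in red cells (0.32, limma adjusted p = 0.0484). Pgam2, the muscle mutase, was at 4.45 to 5.50 and 3.60 to 4.33 FPKM and did not pass (−0.25, 95% interval −0.47 to −0.04, limma adjusted p = 0.0633). It passed as lower with quantile normalization (−0.28, limma adjusted p = 0.0457), median ratio scaling (−0.29, limma adjusted p = 0.037) and scaling to T lineage genes (−0.64, limma adjusted p = 0.000706).

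Upstream of aldolase the direction depended on the scaling. Of the 16 genes in the list of glucose uptake and upper glycolysis, 13 were tested, 5 were higher and 2 lower (2 and 3 after median ratio scaling, 1 and 8 after scaling to T lineage genes), and the median was 0.09. Among all genes tested, 22.3% were higher and 17.1% lower. After median ratio scaling these shares were 18.7% and 19.8%, and after scaling to T lineage genes 4.48% and 64.1%. Slc2a3, the glucose transporter GLUT3, was between 7.45 and 8.37 FPKM with PBS and between 14.15 and 14.92 with 2DG (log2 difference 0.83, limma adjusted p = 6.02e-05). Pfkfb4, which sets the level of fructose 2,6-bisphosphate, differed by 0.34 (limma adjusted p = 0.0485) and Pfkp, the platelet-type phosphofructokinase, by 0.27 (limma adjusted p = 0.00394). Pfkfb4 did not pass under median ratio scaling (limma adjusted p = 0.0734), scaling to the total without mitochondrial, immunoglobulin, hemoglobin and ribosomal protein genes (0.0528) or T lineage scaling (0.641), and Pfkp turned to lower under T lineage scaling (−0.18, limma adjusted p = 0.0277). The genes that fell were Hk2, the inducible hexokinase, between 3.13 and 3.38 FPKM with PBS and between 1.61 and 2.11 with 2DG (−0.59, limma adjusted p = 0.00189), and Hk3 (−0.22, limma adjusted p = 0.0395).

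Where pyruvate enters the mitochondrion, 13 of 15 listed genes were tested, 4 were higher and 0 lower (1 and 7 after scaling to T lineage genes), and the median was 0.10. These counts stand beside 22.3% higher and 17.1% lower among all genes tested (4.48% and 64.1% after scaling to T lineage genes). Pdk1, a kinase that shuts off pyruvate dehydrogenase, was at 3.27 to 3.46 FPKM in the MWA+PBS samples and 5.87 to 6.19 in the MWA+2DG samples (log2 difference 0.69, limma adjusted p = 0.000155). Mpc1, a subunit of the mitochondrial pyruvate carrier, was at 3.78 to 4.90 and 5.87 to 6.31 FPKM (0.44, limma adjusted p = 0.00665). Pdpr, a regulator of the phosphatase that turns the dehydrogenase on again, differed by 0.41 (limma adjusted p = 0.00192). With scaling to T lineage genes, Pdk1 still passed as higher and Mpc1 and Pdpr did not pass.

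**Figure D4:**
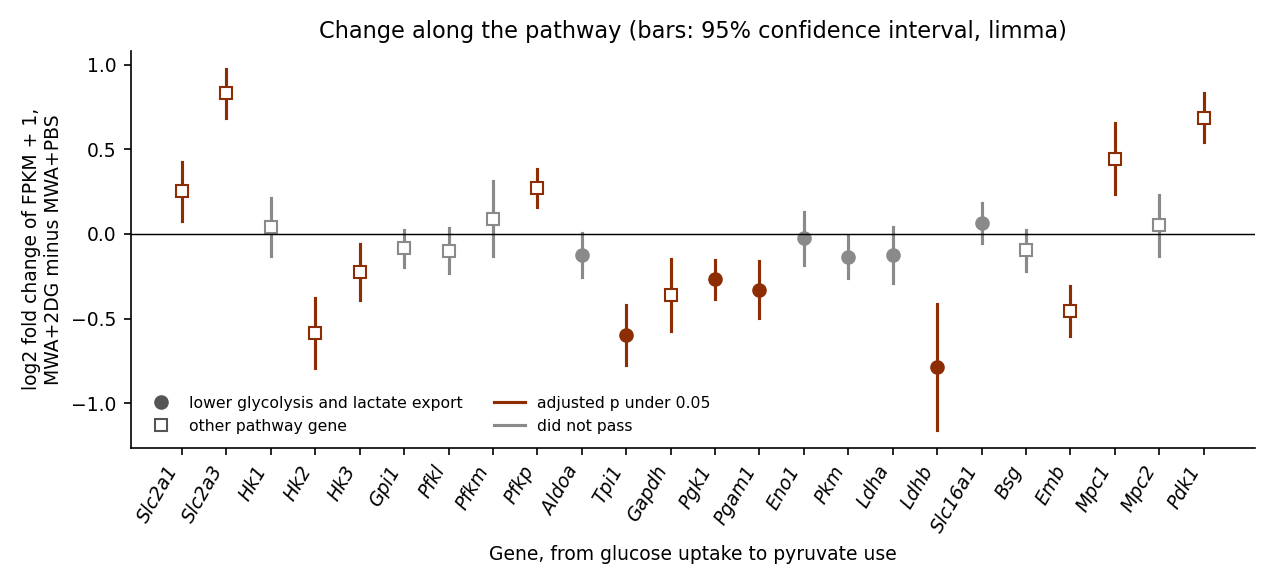
Log2 fold change of FPKM + 1 (MWA+2DG minus MWA+PBS, limma) with its 95% confidence interval for genes ordered from glucose uptake to pyruvate use. Filled circles are the tested lower glycolysis and lactate export genes, squares are other pathway genes, and the called changes lie below 0 at Hk2, Hk3, Tpi1, Gapdh, Pgk1, Pgam1, Ldhb and Emb and above 0 at Slc2a1, Slc2a3, Pfkp, Mpc1 and Pdk1, of which Slc2a3 and Pdk1 alone passed as higher after scaling to T lineage genes.

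Of 12 listed regulators of the pathway, all tested, 2 were higher and 2 lower (0 and 10 after scaling to T lineage genes) with a median of 0.01. The shares among all genes tested were 22.3% and 17.1% (4.48% and 64.1% after scaling to T lineage genes). Irf4, a T cell activation factor, was at 2.68 to 2.81 FPKM in the MWA+PBS samples and 3.76 to 4.10 in the MWA+2DG samples (log2 difference 0.40, limma adjusted p = 0.00321). Myc was at 56.05 to 62.57 and 70.58 to 75.21 FPKM (0.27, limma adjusted p = 0.0114). The lower pair was Mlxip, which encodes the glucose sensor MondoA (−0.47, limma adjusted p = 0.00122), and Ptbp1, a splicing factor that favors PKM2 (−0.24, limma adjusted p = 0.0136). The mRNA of Hif1a was at 21.39 to 22.90 and 20.12 to 23.56 FPKM and did not pass (−0.01, limma adjusted p = 0.884).

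Of 19 listed HIF-1 targets outside glycolysis, 15 were tested, 1 was higher and 5 were lower (0 and 13 after scaling to T lineage genes), with a median of −0.01. Over all genes tested, 22.3% were higher and 17.1% lower (4.48% and 64.1% after scaling to T lineage genes). P4ha1, a collagen prolyl hydroxylase, was between 31.07 and 33.52 FPKM with PBS and between 13.97 and 14.73 with 2DG (log2 difference −1.12, limma adjusted p = 6.66e-06). Egln3, an oxygen-sensing hydroxylase of HIF, fell by 0.51 (limma adjusted p = 0.01) and Ndrg1, a stress-response gene, fell by 0.45 on the log2 scale (limma adjusted p = 0.0254). Egln1, the main HIF hydroxylase, rose by 0.23 (limma adjusted p = 0.0186).

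Proliferation genes and genes of other cell types differed between the groups beside these results. Of 30 proliferation genes, 28 were lower and 0 higher, and their summed level was 449.4 to 475.4 FPKM in the MWA+PBS samples and 306.7 to 319.1 in the MWA+2DG samples. The T lineage genes, which define the labelled cells, were above 0 in all 6 samples. Of these 16 genes, 15 were higher and 0 lower, with sums of 2028 to 2202 and 2890 to 3114 FPKM. Macrophage genes (0 higher and 15 lower of 15 tested) summed to 1005 to 1093 and 147.3 to 156.0 FPKM, and erythroid genes (0 higher and 12 lower of 13) to 346.7 to 403.4 and 106.8 to 123.3. Neutrophil genes (11 higher and 2 lower of 13) summed to 329.9 to 357.1 and 1630 to 1811 FPKM, and B cell genes (9 higher and 1 lower of 10) to 15.3 to 16.6 and 60.8 to 66.0. The 2 lower neutrophil genes were Mpo (means 226.1 and 33.4 FPKM) and Elane (47.2 and 10.7), which made up most of the MWA+PBS sum. The neutrophil sum therefore mixes both directions.

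The remaining lists held fewer tested genes. Plasma cell genes (0 higher and 3 lower of 5 tested) summed to 1686 to 1876 FPKM in the MWA+PBS samples and 722.5 to 808.1 in the MWA+2DG samples. Nearly all of that sum was Igkc (means 858.4 and 355.7 FPKM) and Ighm (877.2 and 393.8). Jchain was also lower, and Mzb1 (limma adjusted p = 0.649) and Prdm1 (0.2) did not pass. NK cell genes (0 higher and 2 lower of 3) summed to 68.8 to 80.4 and 41.5 to 48.5 FPKM. Most of that fall lay in Tyrobp (means 43.5 and 16.9 FPKM). Ncr1 went from 6.54 to 4.92 FPKM, and Gzma did not pass (limma adjusted p = 0.42). Dendritic cell genes (0 higher and 2 lower of 3) summed to 27.1 to 32.9 and 26.8 to 31.3 FPKM, platelet genes (0 higher and 3 lower of 3) to 14.1 to 19.1 and 5.05 to 8.03, and CD4 T cell genes (0 higher and 2 lower of 5) to 17.0 to 18.8 and 16.6 to 17.3. No gene of these lists was at 0 in all 6 samples. The part of other cell types and of proliferation in the changes of Tpi1, Pgk1, Pgam1 and Ldhb was not tested.

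The scaling bears on the directions, because T lineage genes took a larger share of the libraries in MWA+2DG. Scaling each sample to the T lineage genes changed FPKM by −0.47 in log2 units between the groups before 1 was added, and on the log2(FPKM + 1) scale the median of all genes tested went from 0.05 to −0.35, the shift of a gene being smaller at a low level. On that scale all 9 tested members were lower, Tpi1 by −1.05 and Ldhb by −1.16 at the far end. Over all genes tested, 4.48% were higher on that scale and 18.7% after median ratio scaling. Bpgm (0.28, limma adjusted p = 0.0614) and Slc2a1 (0.21, limma adjusted p = 0.052) were positive but did not pass with median ratio scaling. On the T lineage scale, Slc2a3 (0.40, limma adjusted p = 0.000812) and Pdk1 (0.30, limma adjusted p = 0.00447) still passed as higher. Mpc1 and Irf4 stayed positive and did not pass, Eno3, Bpgm, Pdpr and Myc turned negative without passing, and Egln1 turned to lower (−0.21, limma adjusted p = 0.0215).

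**Figure D5:**
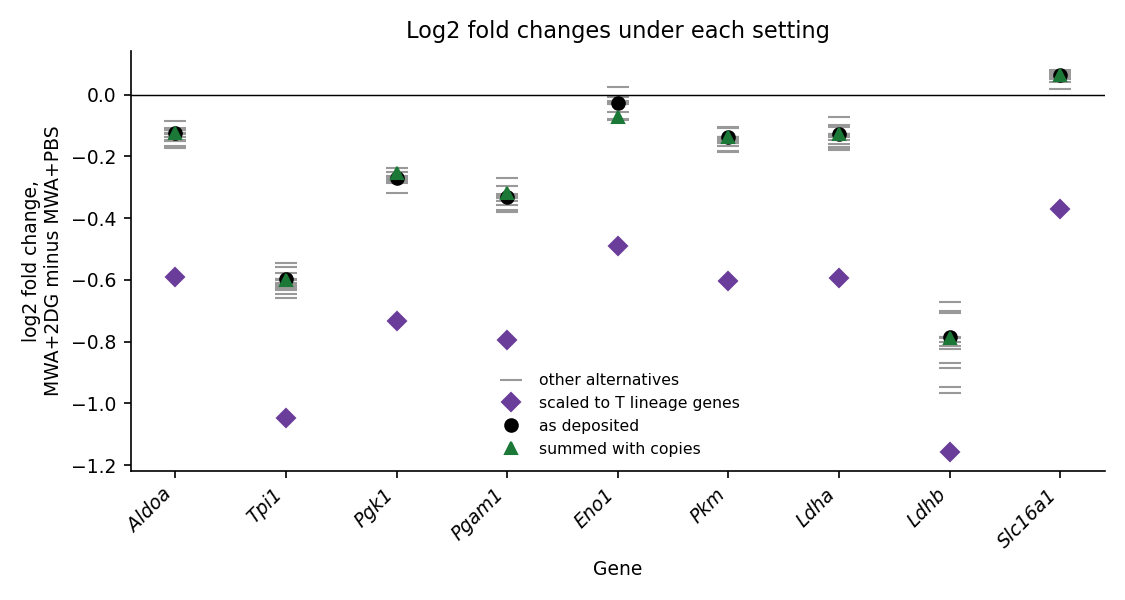
Log2 fold change (MWA+2DG minus MWA+PBS) of the 9 tested genes as deposited (black), with near-identical copies added (green), after scaling to T lineage genes (purple) and under the other alternatives (grey bars). Tpi1, Pgk1, Pgam1 and Ldhb lie below 0 under every setting shown, and the values after scaling to T lineage genes are the lowest for each of the 9 genes.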

How the data were processed

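RNA-seq was done on splenic CD8+ T cells of MWA+PBS and MWA+2DG mice, 3 samples each, grouped by their labels. The authors mapped reads and computed FPKM, scaled by transcript length and library size. The processing notes list cutadapt 1.9, HISAT2 2.0.4, UMI-tools, StringTie 1.3.4d and the mm9 build, and the study's methods name fastp, HISAT2, StringTie and ballgown. Which annotation was used is not stated. The deposited FPKM values hold no counts, so depth is unknown and intervals for counting error could not be formed.

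Symbols came from GENCODE M21 (28689 of 28773 identifiers). For Aldoa, the symbol had 2 identifiers and the one with RefSeq-linked transcripts was used. Genes with a mean FPKM of at least 1 (12444) were tested on log2(FPKM + 1) with limma 3.58.1 in R 4.3.3 (eBayes with a trend, two-sided, no covariates). Ratios and sums had exact permutation tests (SciPy 1.17.1). Copies were found with BLAST 2.17.0 (1 gene overlapping the Pkm locus left out). The fit was tested on simulated data.

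All members were named, with, from each pathway list, at most the 3 largest changes in each direction that passed, isoforms whose FPKM averaged 1 or more and copies by the same limit (for Gapdh only the highest). For 1 gene that this rule named, the result is not reported here. Members and lists were chosen with earlier results of these data known. Hif1a, Bsg and the genes plotted along the pathway were chosen after their values were seen. Alternatives were another pseudocount (0.1), filters (none, or a mean FPKM of at least 5), 4 scalings, no trend, arrayWeights, other thresholds and leaving out each sample.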

Additional observations from a re-analysis of the deposited data

How the results depend on the processing

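The number of genes called lower was 4 in the main analysis and from 4 to 4 when each sample was left out in turn. It was 7 after quantile normalization (17.6% of all genes), 9 after scaling to T lineage genes (64.1%) and 0 when a log2 fold change beyond 1 was also required (3.84%). The number called higher was 0 in every alternative run. Tpi1, Pgk1 and Pgam1 were called lower in 16 of 16 alternatives, with log2 fold changes of −1.05 to −0.55, −0.73 to −0.24 and −0.79 to −0.27, and Ldhb in 15 of 15 (−1.16 to −0.67), since it could not be tested at a mean FPKM of at least 5. Aldoa and Pkm passed in 4 alternatives each, Ldha in 2 and Eno1 in 1.

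Eno1 reversed to 0.026 (limma adjusted p = 0.779) without MWA+2DG replicate 5 and ran from −0.0811 to 0.026 over the samples left out. Scaling by the T lineage list reversed Slc16a1 to −0.37 (limma adjusted p = 0.00123). The log2 ratio of Ldha over Pkm ran from −0.0216 to 0.0462 when a sample was left out and was negative without MWA+PBS replicate 3 (−0.0216), MWA+2DG replicate 4 (−0.0038) or MWA+2DG replicate 6 (−0.00347). The cause was not tested. The difference in summed FPKM ran from −69.7 to −50.9 when a sample was left out, and was −77.3, −61.8 and −220.4 after median ratio scaling, scaling to the total without mitochondrial, immunoglobulin, hemoglobin and ribosomal protein genes and scaling by the T lineage list.

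No paired analysis was possible because the groups share no replicate number. With 3 samples a group, the exact tests cannot go below p = 0.1, FPKM gives no depth, and mRNA levels say nothing of enzyme activity or lactate release.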
